A study of Mus musculus with 10 samples.

Results

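The histone genes of CD34- hematopoietic stem cells (HSCs) were followed in RNA-sequencing libraries from control Reg1flox/flox mice and from mice in which Regnase-1, an RNase encoded by Zc3h12a, was deleted in blood cells. They were chosen by symbol, without use of any measured value: the genes whose names begin with Hist1h, Hist2h, Hist3h or Hist4h, and the 4 variant genes H2afx, H2afz, H3f3a and H3f3b. The rule found 72 of the 33393 genes measured, with 94 of the 95912 transcripts, and 68 of the 72 were named as replication-dependent (Hist) genes. By symbol these 68 comprised 6 linker H1 genes and 19 H2A, 18 H2B, 12 H3 and 13 H4 core histone genes. Among them Hist1h2aj (H2A) and Hist3h2bb-ps (H2B) are annotated as pseudogenes. The abundance of each gene is given as TPM, the number out of every 1000000 transcripts in a library after correction for transcript length, so that levels can be compared between genes.

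The control group was Reg1flox/flox and the other group was Vav1-iCre; Reg1flox/flox, written Reg1Δ/Δ, and both carried the loxP-flanked allele. Vav1-iCre expresses the recombinase in hematopoietic cells generally, so the deletion was not limited to HSCs. All mice were 8 weeks old and on a C57BL/6 background, and the sorted cells were Lin- Sca-1+ cKit+ CD34- Flt3-. A first experiment held 3 control and 3 Reg1Δ/Δ libraries, and a second experiment held 2 of each. It is not stated in the sources used here whether each library came from 1 animal or from a pool, so the p-values below measure only the spread between these libraries.

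Library properties differed both between genotypes and between experiments. Zc3h12a itself was not lower in the libraries labelled Reg1Δ/Δ: its TPM was 1.83, 1.28 and 1.60 in the controls and 3.54, 2.08 and 2.51 in the libraries labelled Reg1Δ/Δ of the first experiment, and 1.48 and 6.07 against 10.3 and 8.52 in the second. The values per transcript do not show which exons the reads covered, so they do not check the deleted part of the gene. Of the 8 genes that mark HSCs or the sort gate, 7 fell in the libraries labelled Reg1Δ/Δ over both experiments, with Hlf, a transcription factor of HSCs, at a mean of 154 against 1.89 TPM in the first experiment. The 8 B-lineage markers summed to 131 to 918 TPM in the first controls and 880 to 1016 TPM in the second, against 2.34 to 18.2 TPM in the libraries labelled Reg1Δ/Δ. The 10 neutrophil markers summed to 3250 to 13748 TPM against 345 to 1069 TPM. Cd34 and Flt3, which the gate excludes, summed to 158 to 270 TPM in the first controls and 62.9 to 96.7 TPM in the second against 10.7 to 22.0 TPM in the libraries labelled Reg1Δ/Δ, and both fell. Lower too were 4 of 5 monocyte, 5 of 8 erythroid and 4 of 5 megakaryocyte markers tested, with 0, 2 and 1 higher. Transcripts shorter than 500 bases took 52.3% to 54.5% of all TPM in the first experiment and 20.0% to 27.3% in the second. The part of these differences in the histone values below was not tested. Fewer cells of one type and less RNA per cell cannot be told apart in such libraries.

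Histones package DNA into nucleosomes, in which DNA wraps around a core of H2A, H2B, H3 and H4 while H1 binds the linker DNA. The replication-dependent genes lie in clusters, are transcribed mainly in S phase, and yield mRNAs that end in a conserved stem-loop instead of a poly(A) tail. The stem-loop is bound by the stem-loop binding protein SLBP, and the U7 snRNP directs the cut that follows it. H2afz, H3f3a and H3f3b have introns and mRNAs with poly(A) tails and are expressed outside S phase as well, whereas H2afx has no intron and carries the stem-loop. H2afz encodes H2A.Z, H3f3a and H3f3b both encode H3.3, and H2afx encodes H2A.X, whose phosphorylated form marks DNA breaks. SMART kits, which were used here, prime the cDNA on poly(A) tails.

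The stem-loop, at which replication-dependent histone mRNAs can end, is shown for members on which the results turn. It was searched as 16 bases (an arm of 6 starting with GG, a loop of 4 starting with TTT and the reverse complement of the arm) in the spliced transcripts of the GENCODE M21 annotation on GRCm38. Capitals mark the 16-base stem-loop and lower case the bases on either side.
Hist1h2ap: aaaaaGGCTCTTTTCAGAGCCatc
Hist1h2bg: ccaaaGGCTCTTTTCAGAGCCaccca
Hist2h2aa1: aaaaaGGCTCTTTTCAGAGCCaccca
Hist3h2a: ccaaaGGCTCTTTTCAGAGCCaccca
Hist1h4n: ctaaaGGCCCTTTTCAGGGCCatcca
Hist1h4i: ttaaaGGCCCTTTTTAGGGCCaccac
H2afx: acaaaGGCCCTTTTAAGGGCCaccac

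These stretches lie at chr13:21833026-21833049 (minus strand) for Hist1h2ap, chr13:23571838-23571863 (plus) for Hist1h2bg, chr3:96239779-96239804 (minus) for Hist2h2aa1, chr11:58955167-58955192 (plus) for Hist3h2a, chr13:21831793-21831818 (minus) for Hist1h4n, chr13:22040961-22040986 (minus) for Hist1h4i and chr9:44335235-44335260 (plus) for H2afx. Hist2h2aa2 carried the same printed sequence as Hist2h2aa1, at chr3:96246027-96246052 (plus). Each lies in the single exon of its transcript. The annotated transcript of Hist1h2ap ended 3 bases after the loop, whereas that of Hist1h2bg ran on for 155 bases, that of Hist1h4i for 330 and that of Hist3h2a for 1643. A stem-loop was found in 44 of the 68 Hist genes and in 48 of 58714 other protein-coding transcripts (0.0818%). The form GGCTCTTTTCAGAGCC was carried by 26 of the 44 genes, from the H1, H2A, H2B and H3 classes, and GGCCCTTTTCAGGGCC by 7, all H4. Of the 68, 16 ended within 40 bases of the loop, 28 ran on further and 24 had no loop in their annotated transcripts. The poly(A) signal AATAAA stood in the last 50 bases of a transcript of 15 of the 68 Hist genes, of 3 of the 4 variants, and in 40.6% of the other coding transcripts.

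Promoters are shown for a gene pair that shares one and did not change alike, and for both H4 genes that were called together. Each window holds 250 bases before to 50 bases after the RefSeq start on GRCm38.p6, read 5′ to 3′ on the strand of the gene. Capitals mark 3 motifs searched on both strands, TATAAA for a TATA box, CCAAT for a CCAAT box and ATTTGCAT for the octamer, with reverse complements also in capitals.
Hist1h2bg: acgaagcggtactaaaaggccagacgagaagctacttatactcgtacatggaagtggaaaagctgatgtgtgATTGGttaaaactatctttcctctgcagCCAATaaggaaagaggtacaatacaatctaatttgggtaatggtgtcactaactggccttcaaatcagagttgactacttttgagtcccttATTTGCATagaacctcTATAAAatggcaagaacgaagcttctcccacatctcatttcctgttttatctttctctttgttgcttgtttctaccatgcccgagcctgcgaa
Hist1h4k: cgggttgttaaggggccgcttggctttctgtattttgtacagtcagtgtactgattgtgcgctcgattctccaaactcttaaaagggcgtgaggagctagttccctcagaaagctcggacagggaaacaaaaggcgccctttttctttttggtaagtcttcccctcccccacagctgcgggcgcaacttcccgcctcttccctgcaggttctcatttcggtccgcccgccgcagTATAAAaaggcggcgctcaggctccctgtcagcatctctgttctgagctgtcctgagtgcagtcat
Hist1h4n: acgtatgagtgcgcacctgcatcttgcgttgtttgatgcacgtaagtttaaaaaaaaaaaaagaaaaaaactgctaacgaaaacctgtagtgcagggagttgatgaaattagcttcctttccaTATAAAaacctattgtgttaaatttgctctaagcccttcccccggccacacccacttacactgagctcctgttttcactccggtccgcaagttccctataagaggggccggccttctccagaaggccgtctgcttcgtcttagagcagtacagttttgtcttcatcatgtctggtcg

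The windows are chr13:23571150-23571449 (plus strand) for Hist1h2bg, chr13:21750504-21750803 (minus) for Hist1h4k and chr13:21832148-21832447 (minus) for Hist1h4n. The Hist1h2bg window held all 3 motifs, and each H4 window held TATAAA and neither of the other motifs. Windows were matched to 62 of the 72 members, 60 of them Hist genes. CCAAT was present in 51 of the 60 windows (85.0%) against 37.4% of all 32851 promoters, and it was in every H1, H2A, H2B and H3 window matched but in 3 of the 12 H4 windows. TATAAA was present in 55.0% against 13.6%, and the octamer in 20.0% against 1.74%, in H2A (38.9%) and H2B (33.3%) windows and in no matched H1, H3 or H4 window. A match describes the letters and does not show that a factor was bound.

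The Hist genes resemble each other closely, and this limits how far reads can be assigned to one of them. They lie on chromosomes 13 (54 genes), 3 (10), 11 (3) and 6 (1), mostly between 21715763 and 23934851 on chromosome 13. At least 50% of the 31-base words of a gene's transcripts were shared with another gene in 42 of the 68, with a median of 58.7%. The shares were 100% for Hist2h2aa1, 89.8% for Hist2h2aa2, 86.2% for Hist1h4k, 87.5% for Hist1h4n and 93.4% for Hist1h2ap, and 2.82% for Hist2h2be and 18.8% for H2afz. Values of the first group are therefore uncertain as to which copy they came from, and the nearest copy of Hist2h2aa1 and Hist2h2aa2 was the gene model Gm20634.

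Of the TPM assigned to the 72 members, the variant genes carried most in every library. The summed Hist genes differed between the experiments far more than between the genotypes. The H4 sums overlapped between the experiments, at 37.3 to 64.0 TPM in the first and 27.2 to 70.2 TPM in the second. The H3 sums did too, at 12.9 to 34.0 and 6.66 to 15.3 TPM. Not counted are 11 short gene models on the other strand of members, described below, at 11727 to 18219 TPM in the first experiment. Their reads and those of the members cannot be told apart, so the sums depend on read assignment. The 4 variants summed to 4753 ± 627 TPM in the controls and 5093 ± 247 TPM in the libraries labelled Reg1Δ/Δ of the first experiment (SD, n = 3 each), and to 3574 ± 478 and 2940 ± 186 TPM in the second (n = 2 each). The 68 Hist genes summed to 1113, 1266 and 1406 TPM in the first controls and to 1602, 1335 and 1655 TPM in the first Reg1Δ/Δ libraries. The second experiment gave sums of 178 and 160 TPM in the controls and of 156 and 176 TPM in the Reg1Δ/Δ libraries, so the genotypes overlapped in both experiments while the experiments did not overlap. Hist1h2ap alone took most of the first-experiment sum: without it the 67 other genes summed to 223 to 456 TPM in the first experiment and to 148 to 175 TPM in the second. H2A was the most abundant Hist class in the first controls, at 1028 ± 162 TPM, followed by H2B at 122 ± 51.6, H4 at 50.3 ± 13.1, H1 at 39.2 ± 12.9 TPM and H3 as the lowest, between 15.6 and 34.0 TPM. The first rank rested on Hist1h2ap, 93.4% of whose words are shared: without it H2A summed to 78.5, 125 and 90.1 TPM, against 96.6, 181 and 87.8 TPM for H2B. The libraries of H4 and H1 overlapped in that order, as did those of H1 and H3. In the second controls the H2B sum was 55.8 ± 3.71, the H2A sum 46.4 ± 3.58 and the H4 sum 39.3 ± 17.1 TPM, and the libraries of H4 overlapped those of H2A. The H2B sum was lower in each Reg1Δ/Δ library than in each control of the same experiment, at 77.3, 67.4 and 76.1 against 96.6, 181 and 87.8 TPM in the first and at 51.2 and 44.1 against 53.2 and 58.4 TPM in the second, and a sum over chosen genes was not tested. In the first experiment this rested on Hist1h2bg: without it the sums were 72.6, 61.8 and 73.7 against 64.2, 104 and 62.2 TPM, which overlapped, and in the second 48.4 and 43.6 against 51.8 and 55.6 TPM.

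**Figure D1:**
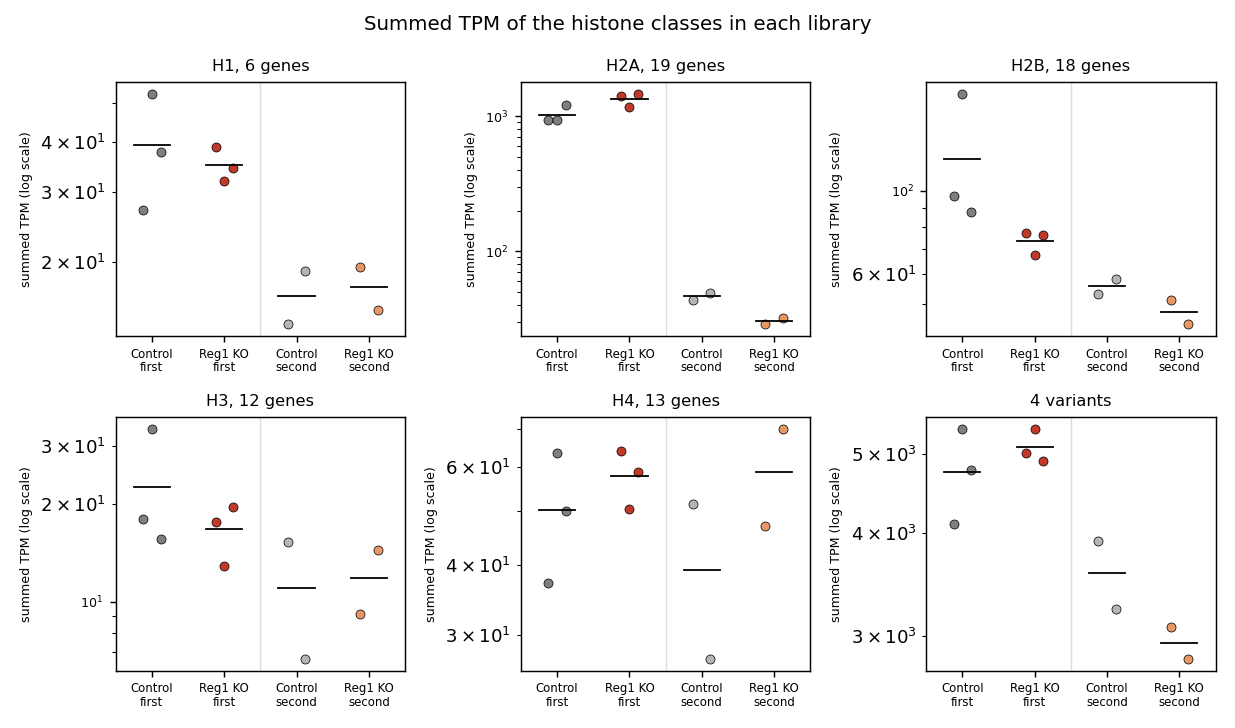
Summed TPM (log axis) of the H1, H2A, H2B, H3 and H4 genes and of the 4 variants in each library, 1 panel per class with its own scale, 1 point per library and a line for the group mean (Reg1 KO, Reg1Δ/Δ). The H2A sum lies between 934 and 1466 TPM in the first experiment and between 28.7 and 48.9 TPM in the second, while the variant sum lies between 2809 and 5370 TPM over all 10 libraries.

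Over both experiments, 3 members rose and 7 fell in the libraries labelled Reg1Δ/Δ. H2afz, Hist1h4k and Hist1h4n rose, and Hist2h2aa1, Hist2h2aa2, Hist3h2a, Hist1h2bg, Hist2h2be, Hist1h2be and H3f3a fell (limma on log2(TPM + 1) with experiment as a term, Benjamini-Hochberg adjusted p under 0.05 over 12874 genes). Among the 12874 genes tested, 15.0% were called higher and 37.9% lower. Of the 72 members 46 had at least 1 TPM in 5 or more libraries and were tested: 4 of 6 H1, 14 of 19 H2A, 12 of 18 H2B, 6 of 12 H3 and 6 of 13 H4 genes and all 4 variants. By class the calls were none of the H1 or H3 genes, 3 lower of the H2A and 3 lower of the H2B genes, 2 higher of the H4 genes, and 1 higher and 1 lower variant. The median log2 difference was -0.04 over the tested members and -0.25 over all genes tested. The balance of calls depended on scaling: quantile normalization, which moves the median of all genes by 0.40 on the log2 scale, called 14 members higher and 2 lower (3861 and 2636 of all genes), and median-of-ratios scaling, which moves it by 0.30, called 6 and 4 (3973 and 3425 of all genes, against 1933 and 4880 here). Leaving out Control first 1 or Reg1Δ/Δ first 1 or 3 left 1 member higher (1821, 1706 and 1548 of all genes).

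In the first experiment alone 1 member, H2afz, rose and 7 fell, beside 12.3% and 37.4% of all genes tested, and in the second alone 3 rose and 3 fell, beside 6.60% and 22.9%. The 7 that fell in the first were Hist1h2bg, Hist1h3e, Hist1h2ao, Hist2h2aa1, Hist2h2aa2, Hist2h2be and Hist3h2a. In the second Hist1h4n, Hist1h4k and Hist1h4c rose and Hist2h2aa1, H3f3a and Hist1h2be fell. No member's difference between the genotypes was called different between the experiments (limma interaction, 6 of 46 at an unadjusted p under 0.05 beside 12.5% of all genes tested, and 0.443% of all genes called). These counts rest on few libraries. Without Reg1Δ/Δ first 1 the first experiment had 4 lower (3989 of the 12874 genes). It had none higher without Control first 1 (1375 of all genes) or Reg1Δ/Δ first 1 (1161) or 2 (1232). In the second, 5 were lower without Control first 2 (2985 of all genes), and 1 without Reg1Δ/Δ first 1 (2721) or 2 (2786). Leaving out a library of the second experiment leaves 1 in its group, whose spread is then not measured.

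Taking all 72 members without any filter, every Reg1Δ/Δ library of the first experiment lay above every control for 2 members and below for 16, where all 33393 genes had 8.27% above and 29.5% below. In the second experiment 12 lay above and 14 below, where all genes had 11.4% and 23.2%. Of those 12, 6 were H4 genes, and 7 were listed at 0 in both controls, where 28 and 33 of the 72 members were listed at 0 against 13 in each Reg1Δ/Δ library. Members below the controls in both experiments numbered 9, and none was above in both, where all 33393 genes had 16.5% below and 5.17% above in both. The 9 were Hist2h2aa1, Hist2h2aa2, Hist3h2a, Hist1h2ac, Hist2h2be, Hist1h2be, Hist3h2ba, Hist4h4 and H3f3a. Hist1h2ac, Hist1h2be, Hist3h2ba and Hist4h4, with Hist1h2ao, Hist2h2ac, Hist1h1a, Hist1h3g, Hist1h4c and Hist1h3f elsewhere, are named after their values were seen, since the naming rule did not pick them.

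**Figure D2:**
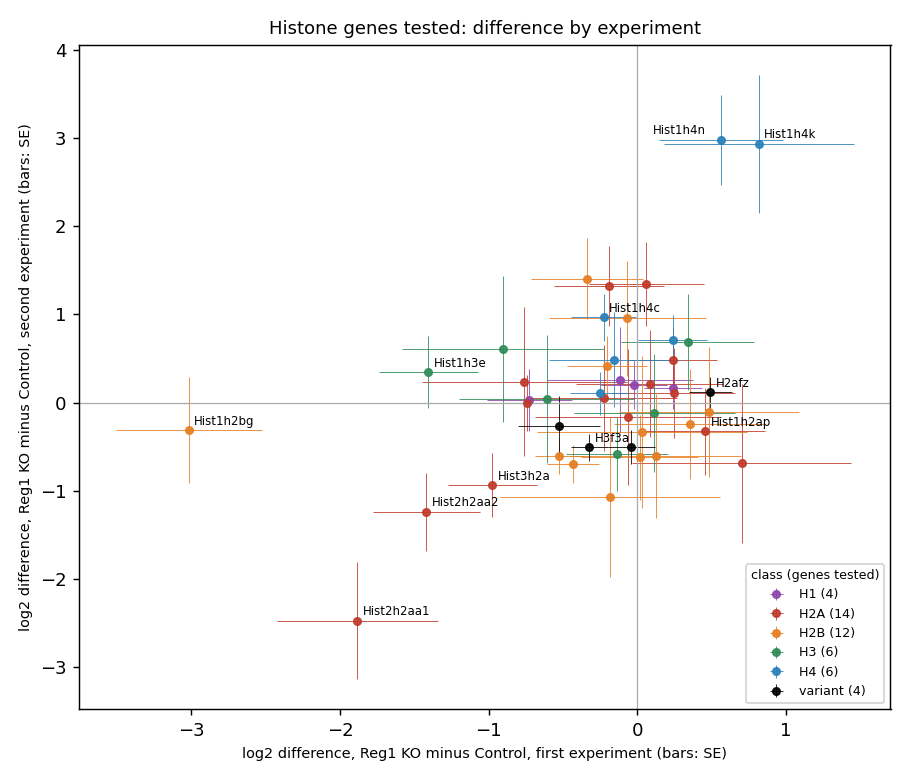
Log2 difference on the log2(TPM + 1) scale between Reg1Δ/Δ and control libraries in the first experiment (x axis) and the second (y axis) for the 46 members tested, with bars of 1 standard error. Hist2h2aa1 lies low on both axes, at -1.88 and -2.47, Hist1h2bg is low on the x axis alone (-3.02 and -0.31), and Hist1h4n is high on the y axis (0.57 and 2.98).

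H2afz was the most abundant member in the first experiment, and rose there. Its TPM was 2039, 2462 and 2456 in the controls and 3229, 3492 and 3047 in the Reg1Δ/Δ libraries, which did not overlap. In the second experiment it was 1016 and 812 TPM against 1032 and 943 TPM, which overlapped. The log2 difference was 0.49 (SE 0.14, limma adjusted p = 0.020) in the first experiment, 0.12 (SE 0.17, adjusted p = 0.67) in the second and 0.34 (SE 0.12, adjusted p = 0.039) over both. The call over both experiments was lost with quantile normalization (0.23, adjusted p = 0.086), with rescaling to protein-coding genes (adjusted p = 0.11), without the TPM filter (0.052), without the experiment term (0.70), with transcripts under 500 bases left out (0.080) and when any 1 of 8 of the 10 libraries was left out, the 2 exceptions being Control second 1 and Reg1Δ/Δ second 2 (lost at adjusted p of 0.061 to 0.096). With a replicate block the difference over both was not called (limma adjusted p = 0.066), and with median-of-ratios scaling it was 0.70 (adjusted p = 0.0023). That in the first experiment was lost with quantile normalization (0.25, adjusted p = 0.15), with rescaling to protein-coding genes (adjusted p = 0.10) and without Control first 1 (0.066) or Reg1Δ/Δ first 1 (0.054) or 2 (0.067).

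H3f3a fell over both experiments. Its TPM was 1416, 1479 and 1481 against 1170, 1112 and 1222 in the first experiment and 1898 and 1520 against 1247 and 1147 in the second, with no overlap in either. The log2 difference over both was -0.40 (SE 0.10, adjusted p = 0.0080), and it was -0.04 (adjusted p = 0.77) with median-of-ratios scaling. Its call in the second experiment (-0.51, SE 0.15, adjusted p = 0.038) was lost without any 1 of 8 libraries, all but Control first 2 and Control second 2 (adjusted p of 0.052 to 0.18), and when that experiment was fitted alone (0.14). H3f3b, the other H3.3 gene, was at 585, 1324 and 750 TPM against 525, 686 and 537 in the first experiment, which overlapped, and at 741 and 641 against 595 and 549 in the second, which did not. Its difference over both was not called (-0.42, SE 0.21, adjusted p = 0.11). Without Control first 1 it was called over both (-0.55, adjusted p = 0.048) and in the first (-0.78, adjusted p = 0.041), whereas without Control first 2, the library at 1324 TPM, the differences were -0.23 (adjusted p = 0.18) and -0.19 (adjusted p = 0.42). Summed, H3f3a and H3f3b gave 2345 ± 413 TPM in the first controls and 1751 ± 52.5 TPM in the first Reg1Δ/Δ libraries, and 2400 ± 338 against 1769 ± 103 TPM in the second. H2afx was at 71.6, 98.2 and 99.0 TPM against 87.6, 79.3 and 92.4 in the first experiment, and at 257 and 263 against 198 and 169 in the second. Its difference over both experiments was not called (-0.23, SE 0.14, adjusted p = 0.20), although the groups did not overlap in the second, and without Control first 1 it was called over both (-0.33, adjusted p = 0.038) and in the second (-0.50, adjusted p = 0.045), while without Reg1Δ/Δ second 2 it was -0.15 over both (adjusted p = 0.42).

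**Figure D3:**
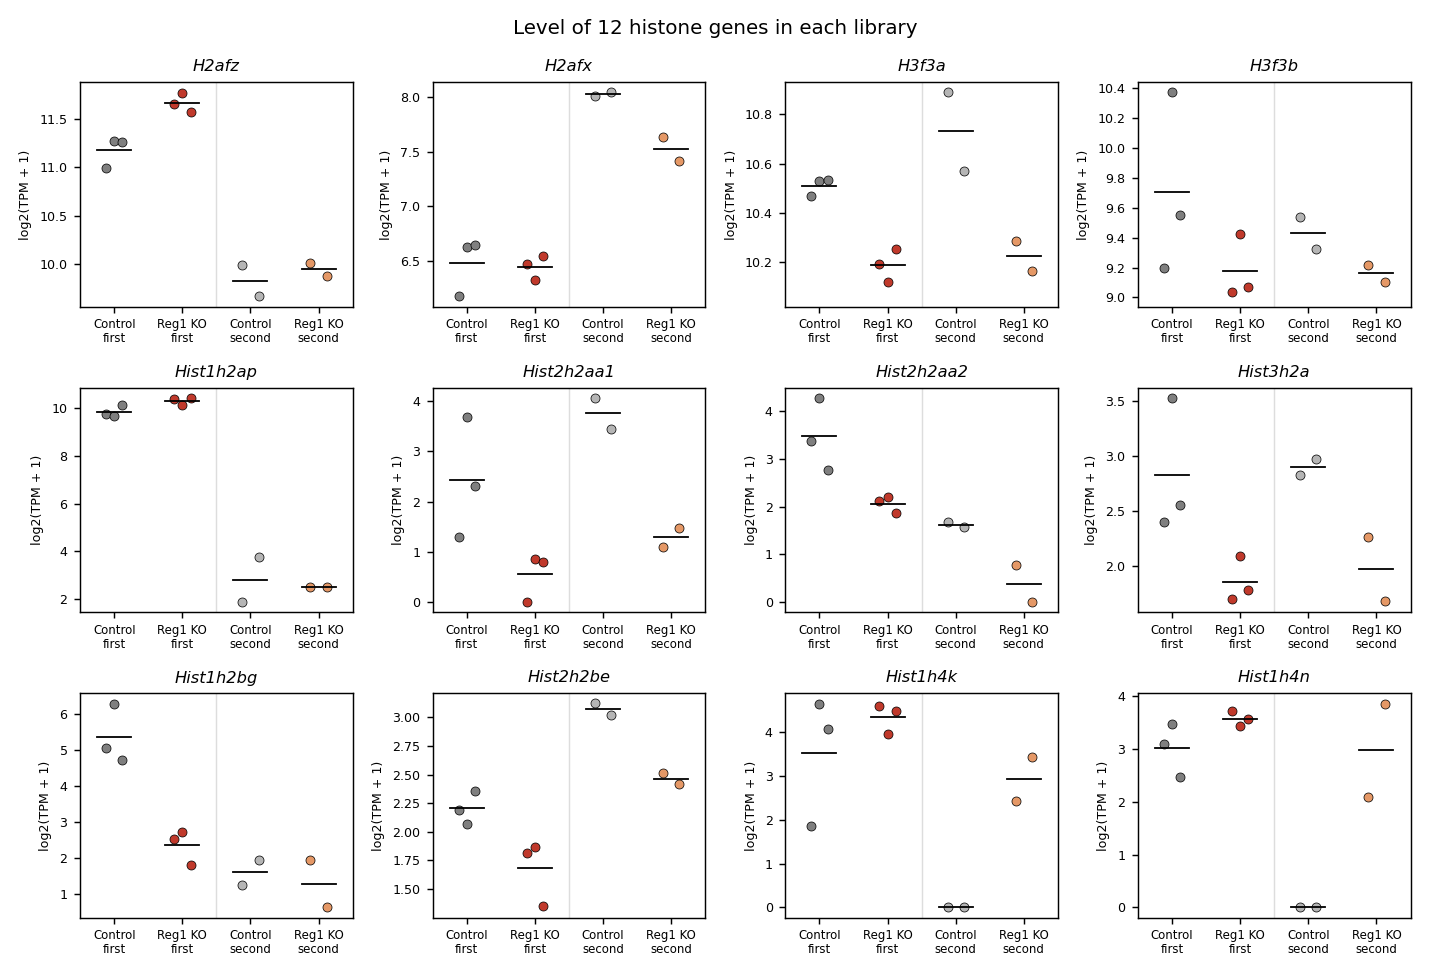
Level in log2(TPM + 1) of 12 members in each library, 1 panel per gene and 1 point per library, with the groups along the x axis. Hist1h2ap lies between 810 and 1375 TPM in the first experiment and drops to 2.68 to 12.5 TPM in the second, while Hist2h2aa1 lies lower in the Reg1Δ/Δ libraries of both experiments.

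The 3 H2A genes that fell over both experiments, Hist2h2aa1, Hist2h2aa2 and Hist3h2a, lie outside the large cluster on chromosome 13. However, Hist2h2ac, also on chromosome 3, was not called (0.14, adjusted p = 0.77, or 0.95 with adjusted p = 0.047 under quantile normalization). Hist1h2ac, inside the cluster, lay below the controls in both experiments and was left untested by the TPM filter. Hist1h2ac was at 4.62, 4.28 and 2.63 against 0.804, 0.771 and 0.571 TPM in the first experiment and at 0.333 and 0.322 against 0.131 and 0.106 TPM in the second. With rescaling to protein-coding genes it passed the filter and was called lower over both (-1.24, adjusted p = 0.0032). Hist2h2aa1, on chromosome 3, was at 1.45, 12 and 3.99 TPM in the first controls and at 0, 0.808 and 0.746 TPM in the Reg1Δ/Δ libraries. In the second experiment it was at 15.7 and 9.97 TPM against 1.14 and 1.79 TPM, and the groups overlapped in neither experiment. The log2 difference was -2.12 over both (SE 0.41, adjusted p = 0.0018), -1.88 in the first (SE 0.54, adjusted p = 0.019) and -2.47 in the second (SE 0.66, adjusted p = 0.023). The call over both experiments held under every alternative in which the gene was tested (with at least 1 TPM required in every library it was not), with -1.38 (adjusted p = 0.037) under quantile normalization, while the call in the first experiment was lost without Reg1Δ/Δ first 1 (adjusted p = 0.067) and was -1.25 (adjusted p = 0.035) without Control first 2. That in the second was lost without Control second 1 (0.092) or Reg1Δ/Δ second 1 (0.11) or 2 (0.070). Both of these were also lost with quantile normalization (adjusted p = 0.16 in each). Hist2h2aa2, its neighbour, was at 9.47, 18.5 and 5.80 against 3.33, 3.6 and 2.62 TPM in the first experiment and at 2.19 and 1.97 against 0.710 and 0 TPM in the second, with a log2 difference of -1.35 over both (SE 0.27, adjusted p = 0.0021) that was not called under quantile normalization (-0.56, adjusted p = 0.17). Since reads cannot be divided surely between these copies, their sum is given too: 17.0 ± 11.6 against 3.71 ± 0.612 TPM in the first experiment (n = 3 each) and 14.9 ± 4.24 against 1.82 ± 0.0447 TPM in the second (n = 2 each).

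Hist3h2a, on chromosome 11, was at 4.28, 10.6 and 4.88 TPM against 2.24, 3.25 and 2.44 TPM in the first experiment and at 6.12 and 6.84 against 3.80 and 2.19 TPM in the second. The groups did not overlap in either, and the log2 difference over both was -0.96 (SE 0.22, adjusted p = 0.0050), or -0.12 (adjusted p = 0.71) under quantile normalization. Its call in the first experiment (-0.98) was lost without Reg1Δ/Δ first 1 (adjusted p = 0.077) or 3 (0.068), and was -0.62 (adjusted p = 0.045) without Control first 2. Of its 31-base words 32.1% are shared with the overlapping gene Trim17. Hist1h2ap, the most abundant Hist gene in the first experiment, was at 855, 810 and 1124 TPM against 1319, 1112 and 1375 there. Its difference was not called in the first experiment (0.46, SE 0.40, adjusted p = 0.37) or over both (0.14, SE 0.32, adjusted p = 0.73). The calls depended on the second controls, at 2.68 and 12.5 TPM. Without Control second 1 the difference was -0.07 over both (adjusted p = 0.86), and without Control second 2 it was 0.50 (adjusted p = 0.013). In the second experiment it was -1.26 (adjusted p = 0.0071) and 0.61 (adjusted p = 0.11) in the same order. That in the first was called at an unchanged 0.46 without either (adjusted p = 0.045), where the lone control is assumed to vary like the other groups. Hist1h2ao, whose transcript shares 93.8% of its words with other genes, above all Hist1h2ap, fell in the first experiment (2.18, 3.19 and 4.11 against 0.642, 1.91 and 2.05 TPM, -0.74, SE 0.26, adjusted p = 0.041) and was listed at 0 in the second. The sum of Hist1h2ap and Hist1h2ao went the other way in the first experiment, from a mean of 933 TPM to 1270 TPM, with overlap between the genotypes. Hist1h2ae and the annotated pseudogene Hist1h2aj overlapped between the genotypes in both experiments, at 5.21 to 37.0 TPM in the first and 0 to 3.08 TPM in the second. Hist1h2ae was called higher over both under median-of-ratios scaling (0.63, adjusted p = 0.030) and quantile normalization (0.80, adjusted p = 0.011).

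Of the H2B genes, Hist1h2bg changed most in the first experiment. It was at 32.4, 77.5 and 25.5 TPM in the controls and at 4.70, 5.64 and 2.47 TPM in the Reg1Δ/Δ libraries, a log2 difference of -3.02 (SE 0.49, adjusted p = 0.0013). In the second experiment it was at 1.37 and 2.85 against 2.85 and 0.534 TPM, which overlapped (-0.31, SE 0.60, adjusted p = 0.76). The change in the genotype difference from the first experiment to the second was not called (limma interaction 2.70, SE 0.78, adjusted p = 0.22). Over both experiments the log2 difference was -1.94 (SE 0.56, adjusted p = 0.016), and -1.25 (adjusted p = 0.11) under quantile normalization, while the call in the first experiment held under every alternative in which the gene was tested, which again leaves out the requirement of 1 TPM in every library. Hist1h2bg and Hist1h2ae point away from each other and share 279 bases of promoter window (the sequence printed above lies within chr13:23571150-23571470), yet in the first experiment Hist1h2ae was at 18.6, 18.4 and 29.0 against 24.7, 18.2 and 37.0 TPM (0.24, SE 0.30, adjusted p = 0.53). Of the promoter windows, 9 were shared in this way, each by an H2A and an H2B gene. In another of them Hist1h2ap had a mean of 662 TPM over all libraries and Hist1h2br 0.368 TPM. The mean of Hist1h2ap joins 810 to 1375 TPM in the first experiment with 2.68 to 12.5 TPM in the second. Hist1h2ap shares 93.4% of its words with Hist1h2ao and Hist1h2br 89.5% with Hist1h2bq, so both levels depend on read assignment.

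Hist2h2be, whose sequence is nearly unique among the members, was at 3.57, 3.19 and 4.12 against 2.53, 2.66 and 1.55 TPM in the first experiment and at 7.70 and 7.09 against 4.71 and 4.34 TPM in the second. The groups did not overlap in either, and the log2 difference over both was -0.56 (SE 0.12, adjusted p = 0.0041) and 0.28 under quantile normalization, the opposite sign. It was not called under median-of-ratios scaling (-0.28, adjusted p = 0.089). In the first experiment its call was lost without Control first 1 (adjusted p = 0.061) or 3 (0.087) or Reg1Δ/Δ first 3 (0.084). Hist1h2be, at 0.0343 to 2.45 TPM, fell over both (-0.54, SE 0.14, adjusted p = 0.0083), and also changed sign under quantile normalization (0.38). It was not called under median-of-ratios scaling (-0.35, adjusted p = 0.054). Its call in the second experiment (-0.69, SE 0.21, adjusted p = 0.039) was lost without any 1 of 7 libraries, all but Control first 2 and 3 and Reg1Δ/Δ second 1 (adjusted p of 0.054 to 0.24). Hist1h2bc, the most abundant H2B gene in the second experiment, overlapped between the genotypes in both experiments, at 19.4 to 38.2 TPM in the first and 13.7 to 25.4 TPM in the second. Hist1h2bq overlapped too, at 8.24 to 24.7 and 0 to 9.28 TPM, and its difference in the second experiment rested on single controls: without Control second 1 it was -2.75 (adjusted p = 0.0070) and without Control second 2 it was 0.62 (adjusted p = 0.45). Each of these fits leaves 1 control in that experiment, assumed to vary like the other groups.

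Both H4 genes that rose over both experiments were called in the second and not in the first, and the second controls were listed at 0. For neither was the genotype difference called different between the experiments. With a pseudocount of 0.1 that of Hist1h4n was (limma interaction 5.45, adjusted p = 0.030). Hist1h4k was at 2.60, 24.1 and 15.8 TPM in the first controls and 23.3, 14.4 and 21.2 TPM in the first Reg1Δ/Δ libraries, which overlapped, and was listed at 0 in both second controls against 4.41 and 9.77 TPM. Hist1h4n was at 7.51, 10.1 and 4.55 against 12.2, 9.77 and 10.9 TPM in the first experiment, which overlapped, and was listed at 0 in both second controls against 3.28 and 13.5 TPM. Over both experiments the difference on the log2(TPM + 1) scale was 1.66 (SE 0.58, adjusted p = 0.034) for Hist1h4k and 1.53 (SE 0.49, adjusted p = 0.025) for Hist1h4n. These are not fold changes, since 1 group is at 0. The call for Hist1h4k was lost without any 1 of 7 libraries (Control first 1, Reg1Δ/Δ first 1 or 3, and each library of the second experiment, adjusted p of 0.053 to 0.084) and that for Hist1h4n without Control second 1 (0.058) or 2 (0.062). In the second experiment alone the call for Hist1h4k (adjusted p = 0.022) was lost without Control second 1 (0.067) or 2 (0.076) or Reg1Δ/Δ second 2 (0.13), while that for Hist1h4n (adjusted p = 0.0028) was not lost without any 1 library but was lost when that experiment was fitted alone (0.10). Without the filter on TPM neither gene was called over both experiments (adjusted p = 0.11 and 0.081). Neither was called with a replicate block or without the experiment term. Hist1h4n shares 85.2% of its words with Hist1h4m, and their summed TPM in the second experiment was 3.98 and 0 in the controls against 3.28 and 13.5, which overlapped. Hist1h4c rose in the second experiment (0 and 0 against 0.613 and 1.38 TPM, adjusted p = 0.025). Hist1h4i, the most abundant H4 gene in the second experiment, overlapped there, at 25.2 to 39.1 TPM, and was at 12.2, 10.2 and 7.86 against 8.72, 8.19 and 7.68 TPM in the first (over both -0.11, SE 0.16, adjusted p = 0.59). Hist1h4d was at 7.31 to 13.7 TPM in the first experiment and at 0 to 1.12 TPM in the second, and its difference over both was not called (0.43, SE 0.19, adjusted p = 0.079), though it was without Control first 3 (0.57, adjusted p = 0.018), with median-of-ratios scaling (0.68, adjusted p = 0.0082) and with quantile normalization (0.94, adjusted p = 0.0025).

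No H3 or H1 gene was called over both experiments, although quantile normalization called Hist1h1a (0.84, adjusted p = 0.040), Hist1h1b, Hist1h1e (0.80, adjusted p = 0.0047) and Hist1h3g (1.19, adjusted p = 0.0061) higher. Hist1h3e fell in the first, from 7.24, 5.99 and 2.89 TPM to 1.73, 1.09 and 1.11 TPM (-1.41, SE 0.33, adjusted p = 0.0082, and -0.60 with adjusted p = 0.15 under quantile normalization), and was at 0.371 and 1.83 against 1.39 and 1.63 TPM in the second. The change in its genotype difference between the experiments was not called (limma interaction, adjusted p = 0.24). Without Control second 1 its difference over both experiments was -1.03 (adjusted p = 0.016). Of its words 84.4% are shared with another gene, above all Hist1h3f. Hist1h3i and Hist1h3d overlapped between the genotypes in the first experiment, at 1.11 to 8.03 TPM. In the second, Hist1h3d was at 1.23 and 1.79 against 0.885 and 0.478 TPM, without overlap (-0.58, SE 0.42, adjusted p = 0.34), and Hist1h3i at 3.46 and 0 against 0.915 and 4.41 TPM, which overlapped. Of the linker genes, Hist1h1b, a replication-dependent H1, overlapped in both experiments at 13.1 to 23.2 TPM and 1.73 to 2.47 TPM (over both 0.21, SE 0.15, adjusted p = 0.24, but 0.51 with adjusted p = 0.022 under median-of-ratios scaling and 0.79 with adjusted p = 0.0042 under quantile normalization). Hist1h1c was at 9.08, 22.0 and 11.4 against 7.78, 6.75 and 8.38 TPM in the first experiment, without overlap (-0.73, SE 0.29, adjusted p = 0.065), and ranged from -0.97 without Control first 1 (adjusted p = 0.025) to -0.38 without Control first 2 (adjusted p = 0.15). It overlapped in the second experiment, at 10.8 to 14.5 TPM. Hist1h1e overlapped in both, at 3.78 to 6.8 and 0.484 to 1.18 TPM.

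Between the experiments 3 members were higher in the second (Hist1h4i, H2afx and Hist2h2be) and 20 were lower, where 27.0% of all genes tested were higher and 33.4% lower. The filter on TPM admits some members through the first experiment alone, so these counts among the tested members are a description. Over all 72 members, each library of the second lay above each of the first for 3 and below for 15, where all genes had 7.18% and 11.1%. Leaving out Control first 2 gave 6 higher (3323 of the 12874 genes), and rescaling to protein-coding genes gave 2 higher and 30 lower of 55 tested (2205 and 4821 of 11078 genes). The median difference was -0.72 on the log2 scale over the 46 members tested and -0.08 over all genes tested. Without the filter it was -0.40 over all 72 members and -0.02 over all genes. With at least 1 TPM required in every library, which kept 12 members, it was -0.03 and 0.00 with 3 members higher and 3 lower. Hist1h2ap showed the largest difference among the members, from 810 to 1375 TPM in the first to 2.68, 12.5, 4.61 and 4.64 TPM in the second (-7.42, SE 0.33, adjusted p = 5.3e-08). H2afz was lower too, at 812 to 1032 TPM (-1.53, SE 0.13, adjusted p = 4.3e-06), as were Hist1h2ae (-3.32), Hist1h2bq (-3.02), Hist1h4d (-2.93), Hist1h1b (-2.74) and Hist1h1e (-1.78). H2afx was higher, at 169 to 263 against 71.6 to 99.0 TPM (1.31, SE 0.14, adjusted p = 3.2e-05), and Hist1h4i was at 25.2 to 39.1 against 7.68 to 12.2 TPM (1.75, SE 0.16, adjusted p = 1.0e-05). With rescaling to protein-coding genes the differences of H2afx and Hist1h4i were smaller, at 0.61 (adjusted p = 0.0027) and 1.11 (adjusted p = 0.0002), and Hist2h2be was no longer called (0.28, adjusted p = 0.10). The calls for H2afz, H2afx and Hist1h4i held under every alternative run, and that for Hist1h2ap under all but the removal of transcripts under 500 bases, which leaves it without a value. The experiments also differed in library composition, so the experiment and how its libraries were made cannot be told apart.

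Classed by how the annotated transcript ends, the 16 Hist genes that stop within 40 bases of the stem-loop had a median of the group mean of 3.05 TPM in the first controls and 1.49 TPM in the second. The 28 whose transcript runs on had 2.02 and 0.591 TPM, and the 24 with no loop had 2.26 and 1.34 TPM. In the Reg1Δ/Δ libraries of the first and second experiments the medians were 1.81 and 2.16 TPM for those that stop near the loop, 1.13 and 0.969 TPM for those that run on, and 2.36 and 1.08 TPM for those with no loop, so the order of the experiments was not the same in each class. In the second controls 4, 5 and 8 of these genes, in that order, were listed at 0 in both libraries. The gene with the highest mean in the second experiment was Hist1h4i, whose transcript runs on past the loop, at 32.2 TPM in the controls and 34.0 TPM in the Reg1Δ/Δ libraries. Hist1h2ap, which ends 3 bases after the loop, had the highest mean in the first.

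The transcripts that made up the variant genes changed with the experiment. For H2afz, the 1069-base coding transcript held 19.8% to 30.2% of the gene's TPM in the first experiment and 85.3% to 94.6% in the second. A 349-base transcript annotated as a target of nonsense-mediated decay held 16% to 33.6% and 0% to 0.141%, and an 810-base coding transcript 44.0% to 53.6% and 4.16% to 12.4%. On the 1069-base transcript alone H2afz was at 403, 741 and 550 TPM against 654, 1054 and 637 TPM in the first experiment, which overlapped, and at 867 and 769 against 928 and 839 TPM in the second. For H3f3a, a 724-base coding transcript rose from 0% to 0.0164% in the first to 44.2% to 52.9% in the second, and 371-base and 481-base transcripts held 15.9% to 24.7% each in the first and at most 0.153% in the second. For H3f3b, the 1993-base coding transcript held 93.6% to 99.3% and 41.0% to 55.5%, and an 874-base processed transcript 0.189% to 2.90% and 42.8% to 58.1%. With transcripts under 500 bases left out, H3f3a was 0.95 higher in the second experiment (adjusted p = 4.1e-05), where it was not called before (0.13, SE 0.10, adjusted p = 0.30), and it was -0.34 (adjusted p = 0.0098) under quantile normalization.

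**Figure D4:**
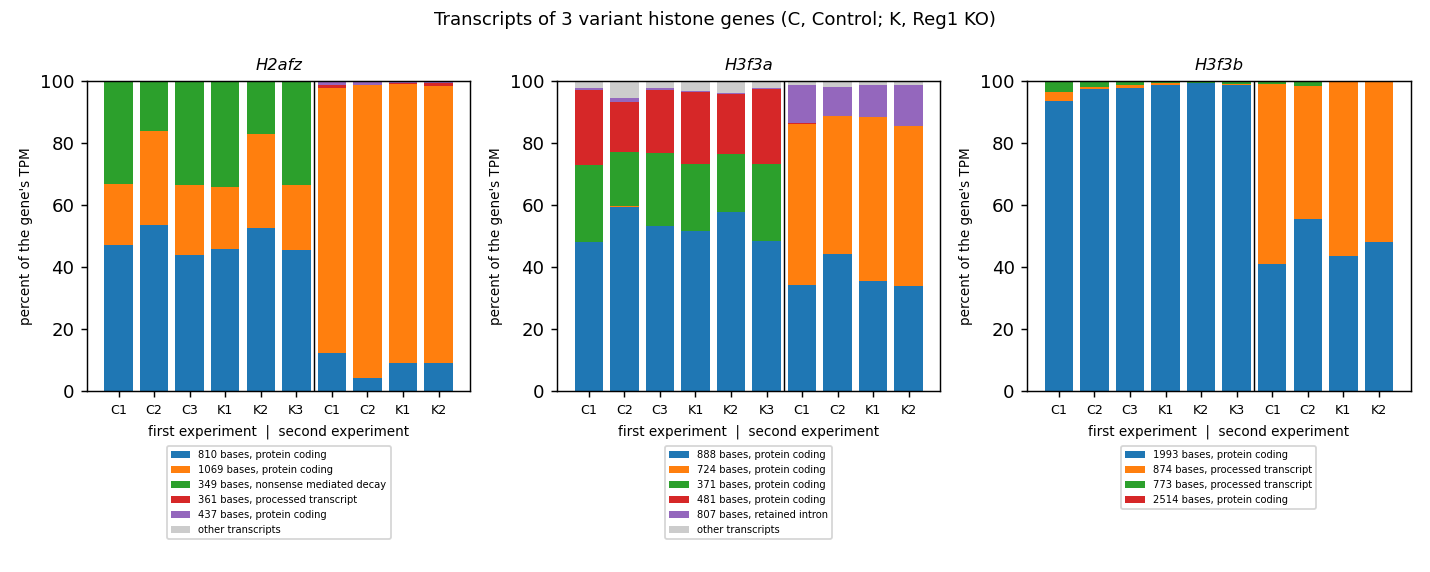
Stacked bars of the percent of each gene's TPM assigned to each of its main transcripts, by library (C, control; K, Reg1Δ/Δ), for H2afz, H3f3a and H3f3b, with transcripts named by length in bases. The 4 libraries of the second experiment stand apart from the 6 of the first, as in the 1069-base H2afz transcript (85.3% to 94.6% against 19.8% to 30.2%), while the genotypes within an experiment lie close.

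Within 19 of the members the M21 annotation places a short miRNA gene model on the opposite strand, and 11 of these members have a model, 129 to 144 bases long, with values here. In the first experiment the 11 models held more TPM than the Hist genes themselves. Their summed TPM was 11727, 11974 and 15188 in the first controls, 16286, 15179 and 18219 in the first Reg1Δ/Δ libraries, 72.2 and 105 in the second controls and 0 and 111 in the second Reg1Δ/Δ libraries. Gm44346, inside Hist1h2an, was at 5138 to 8875 TPM in the first experiment and Gm44367, inside Hist1h2ai, at 4367 to 7790 TPM, and both were listed at 0 in each library of the second. Every 31-base word of 10 of the 11 models is the reverse complement of a word in a member transcript. Gm44335, inside H2afx, was at 761 to 1027 TPM in the first experiment, where H2afx was at 71.6 to 99.0 TPM, and at 0 to 94.5 TPM in the second. The Nextera libraries do not mark the strand, so reads of a histone gene and of the model on its other strand cannot be told apart, and TPM raises the level of a short model per read. The level of the 11 members, among them Hist3h2a, Hist2h2aa1 and H2afx, is uncertain to that degree, in particular in the first experiment. Each model was compared with the words of all members together, so other H2A genes with shared words may be affected too. Hist1h2ap, for one, shares 93.4% of its words with other genes. How far this reaches was not tested. The M21 model opposite Hist1h2ap, Gm44466, is not among the genes measured here. The 30 words of Hist1h2ap absent from Hist1h2ao all lie in the first 60 of its 482 bases.

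**Figure D5:**
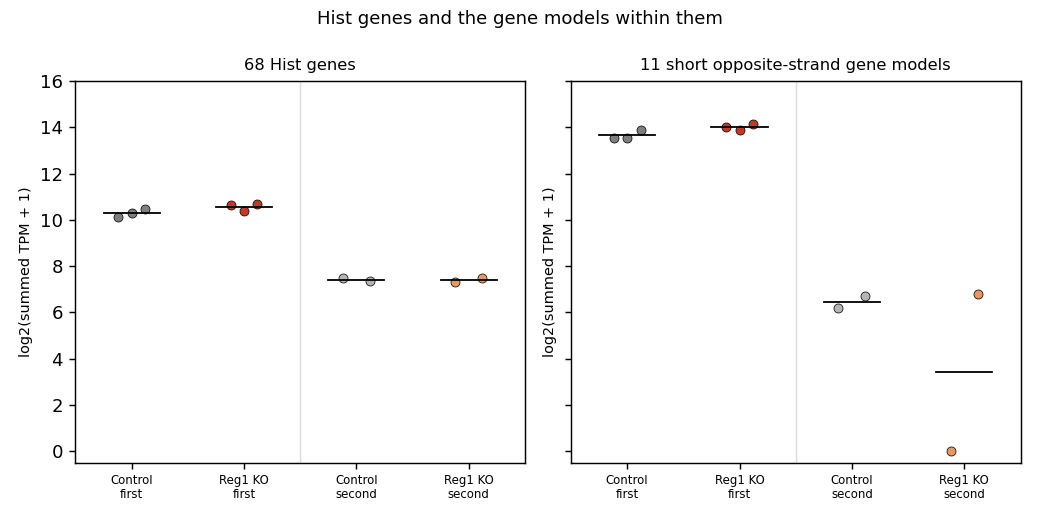
Log2(summed TPM + 1) of the 68 Hist genes and of the 11 short opposite-strand models in each library, 1 point per library. The models sum to 11727 to 18219 TPM in the first experiment and to 0 to 111 TPM in the second, while the Hist genes sum to 1113 to 1655 and 156 to 178 TPM.

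Genes that act on histone mRNA and protein are given beside the members, from fixed lists, with log2 differences over both experiments. The naming rule took the 4 of each list that changed most, and the others named here were chosen after their values were seen. Of 17 tested genes of histone gene transcription and 3′ processing, 4 rose and 1 fell over both experiments, with a median of 0.15 on the log2 scale against -0.25 over all genes tested, of which 15.0% rose and 37.9% fell. Under median-of-ratios scaling 12 rose and 0 fell, under quantile normalization 7 and 0, and with rescaling to protein-coding genes, where 18 were tested, 5 and 5. The 4 were Cpsf2, which encodes a subunit of the cleavage complex (0.40, adjusted p = 0.0052), Snrpd3 (0.36, adjusted p = 0.0088) and Snrpb (0.28, adjusted p = 0.034, and 0.16 with adjusted p = 0.16 under quantile normalization), which encode Sm proteins, and Ncbp1, which encodes the large subunit of the nuclear cap-binding complex (0.34, adjusted p = 0.017). Pou2f1, the octamer-binding factor OCT1, fell (-0.62, adjusted p = 0.038, and -0.30 with adjusted p = 0.22 under median-of-ratios scaling and -0.13 with adjusted p = 0.69 under quantile normalization). Slbp was not called (0.27, adjusted p = 0.062), but was under median-of-ratios scaling (0.62, adjusted p = 0.0021) and with rescaling to protein-coding genes (0.29, adjusted p = 0.045). Npat was not called either (0.02, adjusted p = 0.89), but was under median-of-ratios scaling (0.34, adjusted p = 0.026) and quantile normalization (0.69, adjusted p = 0.0012). Of 20 histone chaperone genes, 4 rose and 4 fell, with a median of 0.02, shares to be read against the 15.0% and 37.9% of all genes. Median-of-ratios scaling gave 10 and 2, and quantile normalization 5 and 2. Asf1a (0.62, adjusted p = 0.0025), Nasp (0.49, adjusted p = 0.0020) and the chromatin assembly factor genes Chaf1a (0.45, adjusted p = 0.015) and Chaf1b (0.33, adjusted p = 0.049) rose, and Atrx (-0.95, adjusted p = 0.0014), Cabin1 (-0.89, adjusted p = 0.0011), Ubn1 (-0.61, adjusted p = 0.0090) and Srcap (-0.44, adjusted p = 0.044) fell. The falls of Ubn1 and Srcap were not called under median-of-ratios scaling (-0.28 with adjusted p = 0.11, and -0.11 with adjusted p = 0.57) or quantile normalization (-0.15 with adjusted p = 0.34, and 0.02 with adjusted p = 0.92). Atrx, Cabin1 and Ubn1 are known for depositing H3.3, and Srcap for exchanging H2A.Z into nucleosomes.

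Of 22 genes of S phase and proliferation, 10 rose and 1 fell over both experiments, with a median of 0.30, where 15.0% of all genes tested rose and 37.9% fell. The count depended on scaling, with 17 higher and 0 lower under median-of-ratios scaling (3973 and 3425 of the 12874 genes) and 6 higher and 1 lower under quantile normalization (3861 and 2636). Ccne1, cyclin E1, rose by 1.52 on the log2 scale (adjusted p = 0.0004), the origin licensing genes Cdc6 and Cdt1 by 0.91 (adjusted p = 0.0002) and 0.65 (adjusted p = 0.0058), and Rrm2, a ribonucleotide reductase subunit, by 0.62 (adjusted p = 0.025, and 0.065 under quantile normalization). Cdk2 fell (-0.40, adjusted p = 0.0062, but -0.06 with adjusted p = 0.61 under median-of-ratios scaling) and the proliferation marker Mki67 was not called (-0.39, adjusted p = 0.10). Of 7 other histone variant genes tested, 2 rose and 4 fell, with a median of -0.56, beside the same shares of all genes. H2afy, which encodes macroH2A, fell by 1.62 on the log2 scale, H1f0, the linker histone of resting cells, by 1.22 and H2afv, an H2A.Z copy, by 0.74, and these held their sign under each scaling. H1fx was -0.56 (adjusted p = 0.018), -0.29 (adjusted p = 0.12) under median-of-ratios scaling and 0.10 under quantile normalization. Cenpa, the centromeric H3, rose by 0.61 and H2afj by 0.48.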

How the data were processed

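CD34- HSCs were sorted from mice of both genotypes and RNA was converted to cDNA with a SMART kit, whose stated version differs between the labels and the study's methods, and made into Nextera XT libraries, which do not mark strand. The authors deposited log2(TPM + 1) values per transcript for 10 libraries, quantified with Salmon 0.9.1 per the submitters' processing notes against a GENCODE annotation of GRCm38. TPM sums to 1000000 in each library. No read counts were used, so library depth is unknown and no counting error could be given. Each value was taken back to TPM by raising 2 to it and subtracting 1, and TPM was summed over the transcripts of a gene.

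Differences were fitted with limma 3.58.1 in R 4.3.3 on log2(TPM + 1), with a pseudocount of 1, over the 12874 genes that reached 1 TPM in 5 or more of the 10 libraries. A model with experiment and genotype gave the differences over both experiments and between the experiments, and a model of the 4 groups gave those within each experiment and their difference. P-values were two-sided, and calls used a Benjamini-Hochberg adjusted p under 0.05. Log2 differences on this scale understate the change of genes with low TPM. In simulated data, where 200 of the 12874 genes were changed by at least 1 on the log2 scale, 159 were recovered with 9 false calls. Smaller changes, groups at 0 and a share of changed genes as large as that called here were not simulated.

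Sequences came from GENCODE M21 transcripts (GRCm38) and RefSeq promoter windows (GRCm38.p6), matched by transcript identifier or by a start within 200 bases on the same strand. The names of Hist2h2aa1 and Hist2h2aa2 are those of the deposited files, which M21 exchanges. The header of one second-experiment Reg1Δ/Δ file carries another sample name, and its group was taken from the labels. The genes named were the variants, the 3 members of each Hist class with the highest mean TPM, and up to 5 members with the largest called rise and fall over both experiments and between the experiments, or with a called interaction. Alternatives were the pseudocount (0.1), the filter, the scaling, the experiment term, a replicate block, each experiment fitted alone and leaving out each library. The members, lists and tests were chosen with earlier results of these data known.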

Additional observations from a re-analysis of the deposited data

Results flagged for a closer look

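Hist1h3f lay below the controls in every Reg1Δ/Δ library of the first experiment and above them in every one of the second. Its TPM was 0.432, 0.506 and 0.517 against 0.182, 0.283 and 0.264 in the first experiment, and it was listed at 0 in both second controls against 0.140 and 0.287 in the Reg1Δ/Δ libraries, a mean of 0.214. It was under the filter on TPM, so the difference was not tested in the models above. Without that filter the change in the genotype difference from the first experiment to the second was 0.53 on the log2(TPM + 1) scale (limma interaction, adjusted p = 0.043). The levels were below 1 TPM in every library, and 55.2% of the words of Hist1h3f are shared with other genes, above all Hist1h3e. No group held more than 3 libraries, so none could be screened for a single library far from the others.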

How the results depend on the processing

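Counts of members called are given as higher and lower in libraries labelled Reg1Δ/Δ, where the main counts were 3 and 7 over both experiments, 1 and 7 in the first and 3 and 3 in the second. Over both experiments, no member was higher without the TPM filter (1791 of 33393 genes), without the experiment term (716 of 12874) or with transcripts under 500 bases left out (2000 of 11501). That last choice was made after seeing the data. With at least 1 TPM required in every library 1 was higher and 3 lower (1871 and 3318 of 9412 genes). Without the experiment term 3 were lower (3052 of 12874). Quantile normalization gave 14 higher and 2 lower over both, 8 and 2 in the first (3376 and 2460 of the 12874 genes) and 9 and 1 in the second experiment (1953 and 1689). Median-of-ratios scaling gave 6 and 4 over both, 2 and 4 in the first (3506 and 3279 of all genes), and 6 and 2 in the second (2567 and 2386). Rescaling to protein-coding genes gave 11 lower in the first (4767 of 11078 genes) and 5 higher in the second (1081). The first had 2 higher without the filter (1485 of 33393 genes). With 1 TPM in every library it had 3 lower (3264 of 9412 genes), and the second had none higher (818). Between the experiments 3 were higher and 20 lower in the second (3477 and 4300 of the 12874 genes). Quantile normalization gave 6 higher and 17 lower (5061 and 3159), and rescaling to protein-coding genes 2 and 30 (2205 and 4821 of 11078). Leaving out short transcripts gave 5 and 11 of 26 tested (4382 and 2350 of 11501 genes). With 1 TPM in every library 3 were higher and 3 lower of 12 tested (2988 and 3046 of 9412 genes). The interaction called 2 members higher with a pseudocount of 0.1 (45 of the 12874 genes) and 1 without the filter (171 of 33393), and none as main. Leaving out 1 library at a time gave 1 to 3 higher and 7 to 9 lower over both, 0 to 2 and 4 to 8 in the first, 1 to 5 and 0 to 5 in the second, 3 to 6 and 19 to 23 between the experiments, and 0 to 1 higher and 0 lower for the interaction.

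For differences called here or under the alternative, the sign turned under quantile normalization for Hist1h2be (0.38 over both, 0.57 in the first, 0.081 in the second), Hist2h2be (0.28 and 0.39 in the first), Hist1h1e (0.87 in the first) and H3f3a between the experiments (-0.34, and -0.75 with rescaling to protein-coding genes). Among the values of single named members, 111 lost and 56 gained a call under an alternative, and 109 that were never called took the other sign. Rescaled, the Hist genes summed to 2677 and 3126 TPM in the first controls and Reg1Δ/Δ libraries and to 213.2 and 213.7 TPM in the second, and the variants to 8751, 8608 and, in the second Reg1Δ/Δ libraries, 3208 TPM. The cause was not tested. The replicate numbers were not taken to pair the libraries, since not every correlation passed 0.1: deviations of same-numbered libraries correlated at 0.033, 0.175 and 0.068 (first experiment) and -0.054 (second), and a fit with the number as a replicate block called 0 members higher and 7 lower over both (H2afz, adjusted p = 0.066). As a hint from the data, not every library correlated best with its own number. Depth limits could not be given, since no counts were used.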
